A study of Homo sapiens with 18 samples.

Results

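The early transcription factor genes EGR1, EGR3, FOS, FOSL1, FOSL2, JUN, JUNB, JUND, IER2 and MYC were followed in brain tumor cell aggregates exposed to a direct current electrical field (dcEF). They were chosen by name as 10 of the 32490 gene names in the deposited table, and they covered 34 of its 145326 transcripts. Their estimated counts and their TPM, a level per transcript length and depth, were summed by gene name. The study sequenced polyA RNA from spheroidal aggregates of U87mg, a human glioblastoma line, and of DAOY, a human line from a desmoplastic cerebellar medulloblastoma. In electrotaxis, cells move along such a field, and the comparisons asked which RNAs differ once the field is on. Each line gave 3 unexposed control samples (0 h), 3 samples after 2 h and 3 samples after 8 h of continuous dcEF at 250 V/m. All 18 samples had first been kept for 24 h in a gel of culture medium and growth factor reduced Matrigel inside the channel, and each sample pooled 3 channels. According to the study's methods, the samples of a group were biological replicates kept for their RNA quality. Each group is a set of cultures of 1 established line, which the study kept in medium with fetal bovine serum. No aggregates held for 2 or 8 h without the field are among the samples, so exposure and time in the channel cannot be told apart.

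Most of these genes belong to the immediate early response. Growth factors, stress, calcium or mechanical load act through kinases such as ERK on factors already bound at the promoters of such genes. Examples are serum response factor (SRF) and its ELK partners at CArG boxes. Immediate early genes are transcribed before any new protein is needed. EGR proteins are zinc finger factors that bind GC-rich DNA, FOS and JUN proteins pair as the AP-1 factor, IER2 is a small nuclear protein, and MYC pairs with MAX to drive growth genes. In neural tissue, FOS and EGR1 are common marks of recent activity. FOSL1 is tied to the mesenchymal state of glioblastoma, and high MYC marks a subgroup of medulloblastoma.

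Promoter sequences were found in the RefSeq promoter table (GRCh38.p14, 250 bases before to 50 bases after the start) for 7 of the 10 genes. The sequences of EGR1, which passed the test in both lines, and of FOS, JUN, JUNB and IER2, the family members and early gene it is compared with in the results, are printed 5′ to 3′ along the gene's strand. Capitals mark matches to the CArG box, the letters to which SRF binds.
EGR1 (chr5:138465229-138465528, plus strand): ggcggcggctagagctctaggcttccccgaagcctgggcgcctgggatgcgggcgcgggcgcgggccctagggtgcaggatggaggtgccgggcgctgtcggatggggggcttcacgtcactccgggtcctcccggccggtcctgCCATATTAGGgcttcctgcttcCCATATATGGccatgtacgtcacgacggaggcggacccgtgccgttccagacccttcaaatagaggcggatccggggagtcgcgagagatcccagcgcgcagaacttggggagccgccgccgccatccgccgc
FOS (chr14:75278578-75278877, plus strand): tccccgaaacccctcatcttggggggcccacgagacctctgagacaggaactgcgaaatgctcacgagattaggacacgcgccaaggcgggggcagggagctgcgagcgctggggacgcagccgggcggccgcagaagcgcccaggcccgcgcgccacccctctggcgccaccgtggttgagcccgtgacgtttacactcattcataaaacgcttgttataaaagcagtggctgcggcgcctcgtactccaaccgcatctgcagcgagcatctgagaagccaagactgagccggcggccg
JUN (chr1:58783998-58784297, minus strand): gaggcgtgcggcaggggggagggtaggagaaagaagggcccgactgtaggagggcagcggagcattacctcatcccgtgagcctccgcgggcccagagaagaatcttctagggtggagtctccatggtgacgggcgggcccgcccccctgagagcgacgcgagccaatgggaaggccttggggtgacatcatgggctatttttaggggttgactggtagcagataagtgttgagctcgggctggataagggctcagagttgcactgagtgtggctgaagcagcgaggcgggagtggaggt
JUNB (chr19:12791236-12791535, plus strand): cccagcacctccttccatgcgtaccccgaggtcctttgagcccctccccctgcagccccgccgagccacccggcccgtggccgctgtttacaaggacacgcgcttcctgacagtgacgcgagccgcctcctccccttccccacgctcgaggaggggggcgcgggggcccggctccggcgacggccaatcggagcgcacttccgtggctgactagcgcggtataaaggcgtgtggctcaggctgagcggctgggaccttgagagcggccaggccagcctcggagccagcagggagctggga
IER2 (chr19:13150161-13150460, plus strand): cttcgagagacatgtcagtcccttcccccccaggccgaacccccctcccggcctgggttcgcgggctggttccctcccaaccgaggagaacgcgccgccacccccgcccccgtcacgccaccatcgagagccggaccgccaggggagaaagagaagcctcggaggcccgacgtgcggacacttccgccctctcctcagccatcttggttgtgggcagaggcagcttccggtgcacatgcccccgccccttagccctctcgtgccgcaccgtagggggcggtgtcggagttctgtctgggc
The CArG box, searched on both strands, was matched 2 times in the EGR1 window, as CCATATTAGG from 105 bases and as CCATATATGG from 83 bases before the start. It was matched in 1.29% of 35116 promoters of this length and in no other window of the 7 genes. Bases further than 250 before the start were not searched, so this does not say which genes lack a CArG box. The AP-1 site TGACTCA, held by 4.95% of all promoters, was matched in the FOSL2 window, and the cyclic AMP response element TGACGTCA, held by 1.85%, in the JUND window. Neither stood in the 5 windows printed. The EGR site GCGGGGGCG (5.07% of all promoters) and the E-box CACGTG that MYC binds (7.26%) were matched in 0 of the 7 windows, which says only that these letters are not in these bases. The GC box GGGCGG was matched in the windows of FOS, FOSL2, JUN, JUND and IER2, and in 45% of all promoters. GC content of the 7 windows ran from 62% to 77%, against a median of 58.7% over all promoters.

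Libraries held 8341976 to 15610886 estimated counts (median 10269092), of which 2.83% to 8.44% came from mitochondrial genes. The 10 genes together took 0.0450% to 0.0843% of the counts. Of the 10 glioblastoma markers, VIM (3997 to 5341 TPM) and CD44 (2565 to 3547 TPM) were abundant in U87mg. There SOX2 (at most 0.0858 TPM) and S100B (at most 0.173 TPM) were at or near 0, and GFAP (at most 3.11 TPM) and OLIG2 (at most 1.40 TPM) were low. In DAOY, VIM ran from 1719 to 2970 TPM, CD44 from 885 to 1533 TPM and SOX2 from 2.93 to 6.92 TPM. Of the 11 medulloblastoma markers in the table, OTX2 was low (1.15 to 2.44 TPM) and ZIC1 ran from 8.28 to 15.8 TPM in DAOY. BARHL1 was at 0 in every DAOY sample, and GLI1 (at most 0.932 TPM) and NES (at most 0.715 TPM) were near 0. In U87mg, OTX2 was at 0, while ZIC1 ran from 2.53 to 12 TPM, GLI1 from 1.51 to 7.2 TPM and NES from 5.58 to 9.2 TPM. Neither list was thus particular to its line. Of 10 markers of leukocytes, endothelium, epithelium, hepatocytes and mesenchyme, PTPRC stayed at or under 0.663 TPM and CDH1 at or under 0.419 TPM in all samples, while the mesenchymal COL1A1 reached 732 TPM in DAOY and 83.2 TPM in U87mg, PDGFRB ran from 49.0 to 101 TPM in DAOY and from 13.2 to 28.7 TPM in U87mg, and the endothelial PECAM1 ran from 5.46 to 12.9 TPM in DAOY and stayed at or under 2.30 TPM in U87mg. VWF, a defining marker of endothelium, stayed at or under 0.719 TPM in all samples. The summed level of these 10 ran from 317 to 805 TPM at 0 h and from 401 to 548 TPM at 8 h in DAOY, and from 34.6 to 105 TPM and from 48.8 to 67.6 TPM in U87mg, so the ranges of the groups overlapped.

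Before exposure the lines carried different sets of these factors. In U87mg at 0 h, FOSL1, an AP-1 subunit of the FOS family, was the highest at 208.5 ± 48.5 TPM (SD, n = 3), followed by JUND at 89.2 ± 3.72, JUN at 71.5 ± 11.6 and FOSL2 at 57.1 ± 11.4 TPM, and of these only JUN and FOSL2 overlapped. MYC (23.0 ± 1.75 TPM), IER2 (17.1 ± 5.25), JUNB (16.7 ± 9.50) and EGR1 (13.2 ± 1.45) came next, and neighbours in this run overlapped in their samples. FOS lay at 1.99 ± 0.403 TPM and EGR3 at 0.315 ± 0.0773 TPM, each below the gene before it in all 3 samples. In DAOY at 0 h, JUND led at 108 ± 10.8 TPM, above EGR1 in every sample. EGR1 (52.6 ± 6.08 TPM), FOSL1 (41.0 ± 13.0), FOSL2 (34.0 ± 3.92), JUNB (24.3 ± 9.12), JUN (21.5 ± 6.93), IER2 (13.6 ± 4.54), MYC (9.65 ± 2.16), FOS (6.43 ± 3.34) and EGR3 (4.26 ± 0.372) followed, each overlapping with the next.

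**Figure D1:**
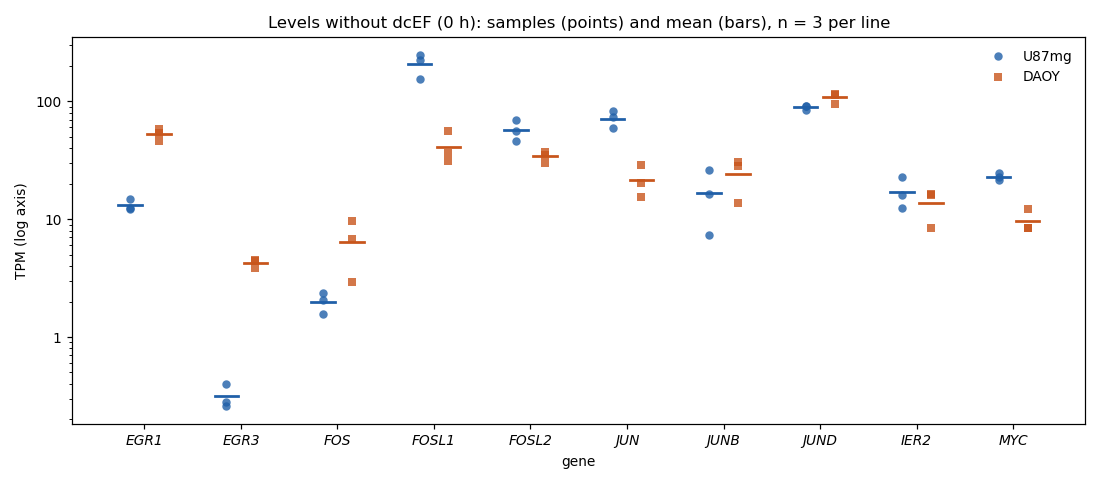
TPM of each gene (log axis) in the 3 unexposed samples of U87mg (circles) and of DAOY (squares), with the mean as a bar. EGR1, EGR3, FOS and JUND lie higher in DAOY, and FOSL1, FOSL2, JUN and MYC higher in U87mg, without overlap of the samples.

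The test of DAOY against U87mg at 0 h, in a fit of all 18 samples, called 6 of the 10 genes, 3 in each direction, where 41.2% of 16482 genes tested were called, 23.4% higher and 17.8% lower. A call needed an FDR under 0.05 together with a fold of at least 2 either way. EGR3 was 15.3-fold higher in DAOY (log2 fold change 3.94 ± 0.37 SE, edgeR FDR = 8.0e-08), EGR1 3.79-fold (1.92 ± 0.38, edgeR FDR = 0.000316) and FOS 3.17-fold (1.66 ± 0.57, edgeR FDR = 0.0186). FOSL1 was 5.45-fold lower in DAOY (-2.45 ± 0.21, edgeR FDR = 2.8e-08), JUN 3.51-fold lower (-1.81 ± 0.23, edgeR FDR = 2.7e-06) and MYC 2.49-fold lower (-1.31 ± 0.17, edgeR FDR = 4.3e-06). FOSL2 passed the FDR, as 60.7% of all genes did, but not the fold threshold (-0.82 ± 0.13, edgeR FDR = 3.8e-05). In normalized counts, 4 of the 10 were higher in every DAOY than in every U87mg control and 4 lower, where 32.1% and 27.2% of all genes were. IER2, JUNB and JUND were not called. The call of FOS was lost without DAOY 0 h replicate 1 (edgeR FDR = 0.122), without U87mg 0 h replicate 1 (edgeR FDR = 0.0669) and with the replicate number as a block (1.20, edgeR FDR = 0.132).

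The genes around them were read in the same comparison, where 23.4% of all genes tested were called higher and 17.8% lower in DAOY. In the MYC network, the family members MYCN and MYCL were higher in DAOY, opposite to MYC, and MLX was higher in U87mg. MYCN averaged 1.17 CPM in the DAOY controls and had 0 counts in those of U87mg, and MYCL averaged 1.99 and 0.374 CPM. Of the 14 ERK output genes, 7 were lower and 0 higher in DAOY, among them SPRED3, SPRY2, ETV1 and DUSP4. Of the 18 AP-1 targets, 11 were lower in DAOY, led by MMP3, HBEGF, VEGFA and LIF, and 1, MMP9, was higher. Of the 37 other immediate early genes, 12 were higher in DAOY, led by HES1, ZFP36L1, RHOB and CTGF, and 6 were lower, led by GADD45A, ARC, IER5L and GADD45B. EGR1 targets were split, with FN1, THBS1, PDGFA and ID3 higher and TNFRSF10B, F3 and GDF15 lower in DAOY, as were MYC targets, with 3 higher (NOP56, POLR1B and BYSL) and 3 lower (LDHA, NME1 and ODC1). MAF was the 1 listed relative of the AP-1 family that was called, at 3.55 on the log2 scale (edgeR FDR = 8.6e-08). The median log2 difference was -1.25 for the ERK output genes and -1.81 for the AP-1 targets, beside 0.05 over all genes.

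After 2 h of dcEF, edgeR called 0 of the 10 genes in U87mg and 0 in DAOY, and it called 0.0% of 14106 genes tested in U87mg and 0.0% of 15396 in DAOY. DESeq2 and limma also called 0 of the 10 in both lines. In U87mg, 2 of the 10 had an unadjusted p under 0.05, EGR1 on the higher side and JUN on the lower side, where 4.85% of all genes lay on the higher and 3.93% on the lower side of that mark. The same 2 genes did not overlap with their controls, where 8.77% of all genes were higher and 5.03% lower without overlap. In DAOY, 5 of the 10 had an unadjusted p under 0.05, all on the higher side (EGR1, FOSL1, JUNB, IER2 and MYC), against 1.38% of all genes. In DAOY, 6 of the 10, these and FOS, were higher in every 2 h sample than in every 0 h sample, where 3.18% of all genes were. The median log2 fold change over the 10 genes at 2 h was 0.61 in DAOY and -0.14 in U87mg, beside 0.00 and -0.02 over all genes tested. In bulk RNA, a smaller share of cells with an RNA and less of it per cell cannot be told apart.

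After 8 h, edgeR called 1 of the 10 genes in U87mg, EGR1, where 0.638% of genes were called and 0.184% on the higher side, and 2 of the 10 in DAOY, EGR1 on the higher and EGR3 on the lower side, where 3.13% were called, 1.19% higher and 1.94% lower. An unadjusted p under 0.05 on the higher side was reached by 2 of the 10 in U87mg (EGR1 and FOS, with 8.93% of all genes) and by 6 of the 10 in DAOY (EGR1, FOS, FOSL1, FOSL2, IER2 and MYC, with 10.5% of all genes). On the lower side it was reached by JUN in U87mg and by EGR3 in DAOY, where 6.95% and 12.2% of all genes reached it. The 2 h and the 8 h comparison of a line share their control samples. Without overlap of the samples, 5 of the 10 were higher and 1 lower than 0 h in DAOY, where 12.3% and 13.8% of all genes were, and 2 were higher in U87mg (FOS and MYC, with 9.59% of all genes).

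**Figure D2:**
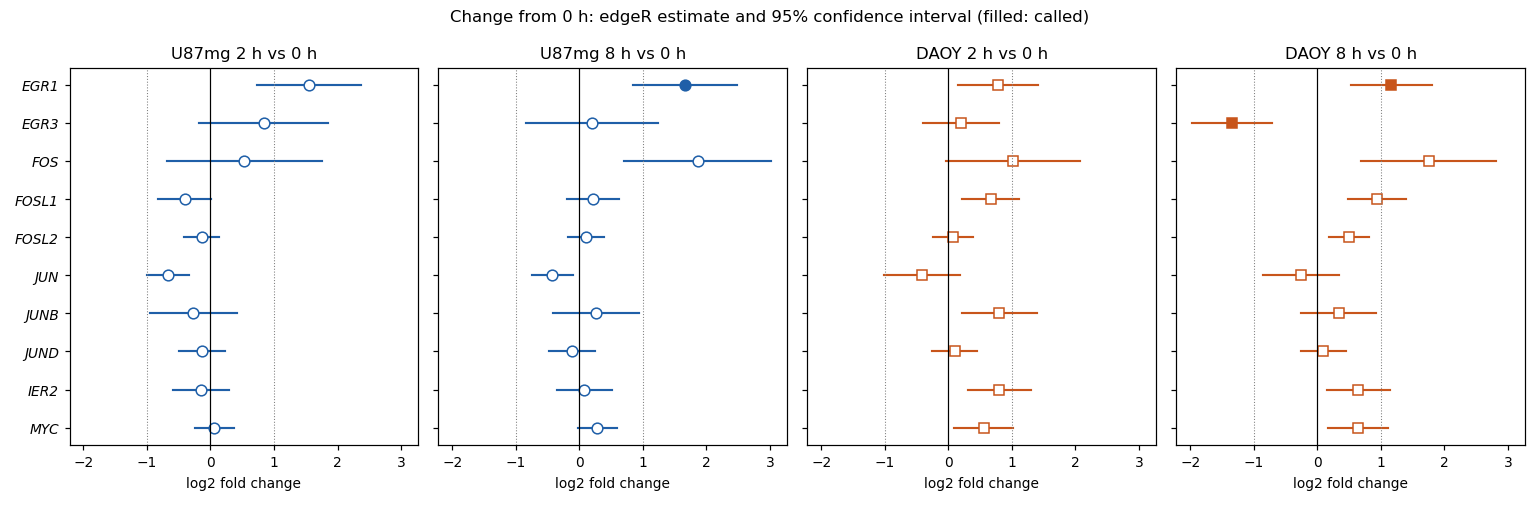
Log2 fold change from 0 h (horizontal axis) of each gene with its 95% confidence interval, for 2 h and 8 h in U87mg (circles) and DAOY (squares); filled points passed both thresholds and dotted lines mark a fold of 2. The filled points are EGR1 at 8 h in both lines and EGR3 at 8 h in DAOY.

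EGR1, whose promoter carries the CArG boxes printed above, is a zinc finger factor switched on by growth factors and stress. In U87mg it stood at 24.4, 22.6 and 28.0 CPM (counts scaled to library size) in the 0 h samples (replicates 0, 1 and 2, in this order throughout), at 75.0, 81.2 and 63.7 CPM after 2 h, and at 90.2, 27.3 and 120.1 CPM after 8 h. All 2 h samples were above all controls, whereas 8 h replicate 1 lay within the range of the controls. The 2 h difference was 2.93-fold (log2 fold change 1.55 ± 0.38 SE, 95% confidence interval 0.73 to 2.37, unadjusted p = 0.00140 by edgeR) and did not pass the FDR (0.495). The 8 h difference was 3.16-fold (1.66 ± 0.38) and passed it narrowly (edgeR FDR = 0.0486). Without 8 h replicate 1 the 8 h value was 2.07 (edgeR FDR = 0.00116), and without any of the other 5 samples, of either group, the call was lost (edgeR FDR 0.0564 to 0.270). When only the 6 samples of the 2 h comparison were fitted, leaving out the spread of the 8 h samples, EGR1 was called at 2 h (log2 fold change 1.55, edgeR FDR = 0.0144), and in the same kind of fit it lost its call at 8 h (edgeR FDR = 0.138). The 8 h call was also lost with limma on log2(TPM + 0.1), at an adjusted p of 0.220.

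In DAOY, EGR1 stood at 102, 106 and 97.9 CPM at 0 h, at 134, 224 and 168 CPM after 2 h, and at 127, 295 and 266 CPM after 8 h. Every exposed sample lay above every control, and 8 h replicate 0 was the lowest of the exposed samples. The difference was 1.72-fold at 2 h (0.78 ± 0.29, edgeR unadjusted p = 0.0196, FDR = 0.999) and 2.25-fold at 8 h (1.17 ± 0.29, edgeR FDR = 0.0427). The 8 h call held without 8 h replicate 0 (1.46, edgeR FDR = 0.0222) and was lost without any of the other 5 samples, where the FDR ran up to 0.156, and with limma on log2(TPM + 0.1), at an adjusted p of 0.0922. Among the 10 genes only EGR1 was called at 8 h in both lines. Its 8 h change in DAOY minus that in U87mg was -0.48 (95% confidence interval -1.58 to 0.61).

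EGR3, a related zinc finger factor and itself a known target of EGR1, went the other way from EGR1 in DAOY. It stood at 14.1, 11.4 and 9.80 CPM at 0 h, at 10.5, 18.1 and 11.7 CPM after 2 h, and at 3.68, 5.44 and 4.78 CPM after 8 h. The 8 h samples lay below all others of the line. EGR3 fell 2.54-fold from 0 h to 8 h (-1.34 ± 0.28, edgeR FDR = 0.0260) and 2.90-fold from 2 h to 8 h (-1.54 ± 0.28, edgeR FDR = 0.0304), the 1 call among the 10 genes for 8 h against 2 h in DAOY, where 1.04% of genes were called and 0.656% on the lower side. The 8 h against 0 h call was lost without any of the 8 h samples (edgeR FDR 0.0774 to 0.0912), and that against 2 h without any of its 6 samples (edgeR FDR 0.0709 to 0.128). In U87mg, EGR3 rested on 6 to 19 counts a sample. Its 8 h difference there was 0.20 (95% confidence interval -0.84 to 1.24), and the interval in DAOY was -1.97 to -0.72. The 8 h change in DAOY minus that in U87mg was -1.54 (95% confidence interval -2.66 to -0.41, edgeR FDR = 0.340).

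**Figure D3:**
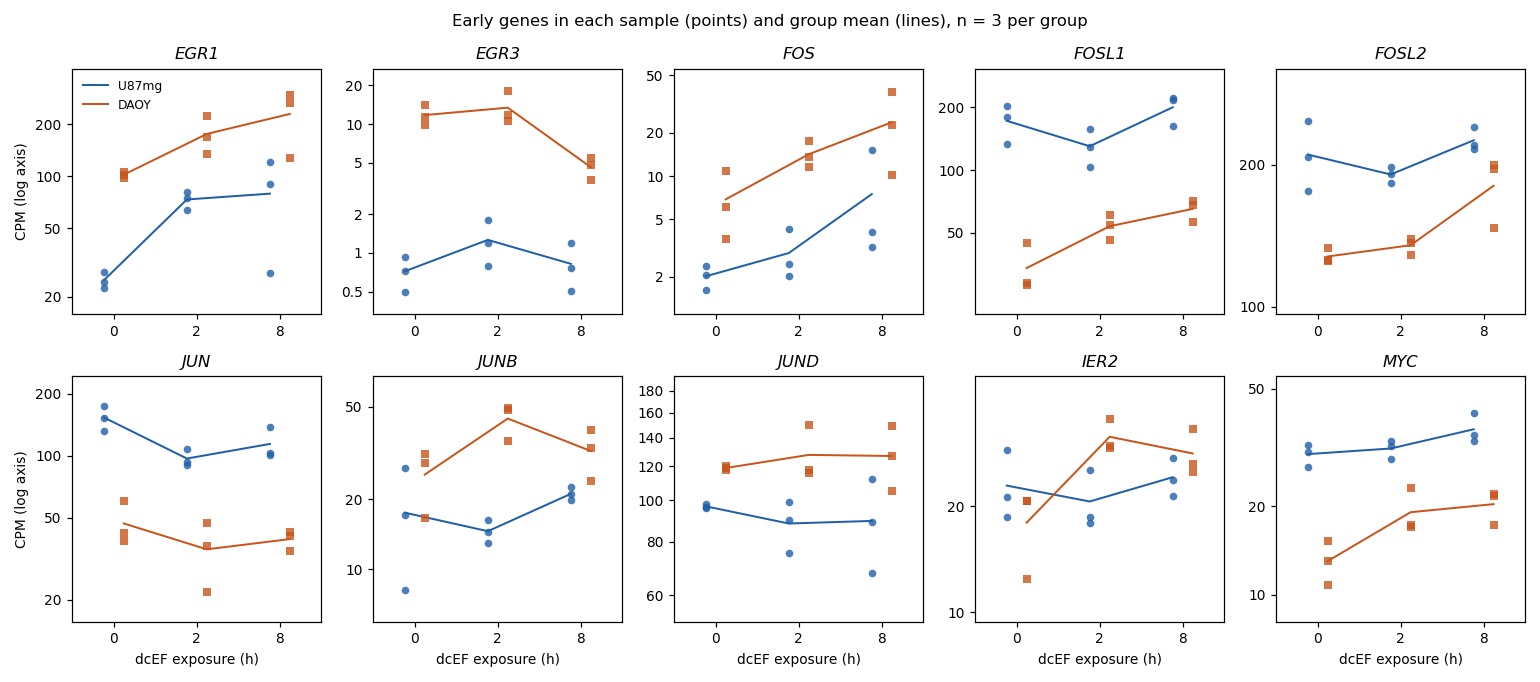
CPM (log axis) of each gene by hours of dcEF in U87mg (circles) and DAOY (squares), 3 samples per group as points and group means joined by lines; CPM were scaled within each line. EGR1 in U87mg has 1 sample at 8 h at 27.3 CPM, near the controls, and EGR3 in DAOY is lowest in all 3 samples at 8 h.

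Among the FOS family, FOS itself, the founding AP-1 subunit, was scarce in the controls of both lines. In U87mg it stood at 2.05, 1.62 and 2.38 CPM at 0 h, at 2.45, 4.29 and 2.04 CPM after 2 h, and at 4.10, 3.23 and 15.2 CPM after 8 h. The 8 h samples did not overlap with the controls, and replicate 2 lay far above the other 2. The 8 h difference was 1.86 ± 0.53 on the log2 scale (edgeR unadjusted p = 0.00434, FDR = 0.106), and 0.86 without replicate 2. In DAOY, FOS stood at 3.64, 10.9 and 6.15 CPM at 0 h, at 11.6, 13.5 and 17.4 CPM after 2 h, and at 10.1, 38.0 and 22.6 CPM after 8 h. At 8 h, replicate 0 overlapped with the controls. The difference was 1.02 ± 0.48 at 2 h (edgeR unadjusted p = 0.0572) and 1.75 ± 0.48 at 8 h (edgeR FDR = 0.0577), just outside the threshold. It was called at 8 h without 0 h replicate 1 (2.25, edgeR FDR = 0.0488) or 8 h replicate 0 (2.12, edgeR FDR = 0.0373).

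FOSL1, which accumulates under lasting ERK activity, lay on opposite sides of its 0 h level in the lines at 2 h. In DAOY it stood at 28.3, 28.9 and 44.7 CPM at 0 h, at 60.7, 54.5 and 46.5 CPM after 2 h, and at 56.5, 71.1 and 68.0 CPM after 8 h, with every exposed sample above every control. The difference was 0.67 ± 0.20 at 2 h (edgeR unadjusted p = 0.00803, FDR = 0.999). At 8 h it was 1.92-fold (0.94 ± 0.21), which passed the FDR (edgeR, 0.0280), as 5.85% of all genes did, and stayed under the fold threshold. In U87mg, FOSL1 stood at 134, 179.8 and 204 CPM at 0 h, at 158, 129 and 103 CPM after 2 h, and at 217, 162 and 221 CPM after 8 h, and neither difference from 0 h reached an unadjusted p of 0.05 (-0.40 ± 0.19 at 2 h and 0.21 ± 0.19 at 8 h). From 2 h to 8 h its difference in U87mg was 0.62 ± 0.19, without overlap (edgeR FDR = 0.127). FOSL2 lay between 176 and 247 CPM in all U87mg samples, and in DAOY between 125 and 139 CPM in the 0 h and 2 h samples and at 146, 195 and 199 CPM after 8 h (0.50 ± 0.14 against 0 h, edgeR FDR = 0.0683). Against 2 h it was 1 of the 10, on the higher side, with an unadjusted p under 0.05 (0.42 ± 0.14, edgeR unadjusted p = 0.0140), and EGR3 was 1 on the lower side, with 8.69% and 10.0% of all genes.

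In the JUN family, the partners of the FOS proteins, JUN was on the lower side of 0 h in U87mg and JUNB on the higher side in DAOY. JUN stood at 132, 153 and 175 CPM at 0 h in U87mg, at 107, 90.0 and 93.2 CPM after 2 h, and at 138, 103 and 101 CPM after 8 h. All 2 h samples lay below all controls, and 1 of the 8 h samples lay among them. The log2 difference was -0.66 ± 0.15 at 2 h (95% confidence interval -0.99 to -0.33, edgeR unadjusted p = 0.000854, FDR = 0.495), the smallest p of the 10 genes in that comparison, and -0.43 ± 0.15 at 8 h (edgeR FDR = 0.185). In DAOY, JUN ran from 38.6 to 60.0 CPM at 0 h, from 21.7 to 47.1 after 2 h and from 34.5 to 42.6 after 8 h, and its intervals spanned 0. Among the 10 genes only JUN had an estimate below 0 at both times in both lines.

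JUNB, which can hold back JUN activity, stood at 16.6, 28.6 and 31.5 CPM at 0 h in DAOY, at 49.6, 48.6 and 35.6 CPM after 2 h, and at 23.9, 33.4 and 39.7 CPM after 8 h. The 2 h samples lay above all controls (0.80 ± 0.27, edgeR unadjusted p = 0.0130, FDR = 0.999), and the 8 h samples overlapped with them (0.34 ± 0.27). In U87mg, JUNB ran from 8.13 to 27.3 CPM at 0 h, a range that held the samples at 2 h (13.0 to 16.2 CPM) and at 8 h (19.8 to 22.5 CPM). JUND, which is made at a steady level in many cell types, had small differences. On the log2 scale they lay between -0.13 and 0.10, with standard errors of 0.16 to 0.17.

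IER2 stood at 12.4, 20.7 and 20.7 CPM at 0 h in DAOY, at 35.4, 29.7 and 29.2 CPM after 2 h, and at 25.0, 33.1 and 26.4 CPM after 8 h, with every exposed sample above every control. Its differences were 0.80 ± 0.23 at 2 h (edgeR unadjusted p = 0.00461, FDR = 0.999), the smallest p of the 10 in that comparison, and 0.65 ± 0.23 at 8 h (edgeR FDR = 0.119). In U87mg all 9 samples lay between 17.9 and 28.8 CPM, and the log2 differences were -0.15 ± 0.20 and 0.08 ± 0.20. MYC stood at 13.0, 10.8 and 15.2 CPM at 0 h in DAOY, at 23.0, 17.3 and 16.9 CPM after 2 h, and at 22.0, 21.7 and 17.2 CPM after 8 h. Again no exposed sample overlapped with the controls (0.55 ± 0.21 at 2 h, edgeR unadjusted p = 0.0251; 0.64 ± 0.21 at 8 h, edgeR FDR = 0.103). In U87mg, MYC stood at 30.5, 27.3 and 32.3 CPM at 0 h, at 32.0, 28.9 and 33.3 CPM after 2 h, and at 41.3, 33.3 and 34.8 CPM after 8 h, where the difference was 0.28 ± 0.14 (edgeR FDR = 0.358) and every 8 h sample lay above every control.

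Within a group, the same sample was often low for several of these genes. In U87mg at 8 h, replicate 1 was the lowest of the 3 samples for 9 of the 10 genes, all but JUN, where it was the lowest for 30.3% of all genes tested in the line. Its mitochondrial share was 2.83%, beside 5.64% and 5.28% in replicates 0 and 2. In DAOY at 8 h, replicate 0 was the lowest for 7 of the 10 (33.8% of all genes), at a mitochondrial share of 5.97% beside 8.44% and 6.03%. At 0 h, replicate 0 was the lowest for 7 of the 10 in DAOY and for 6 of the 10 in U87mg (39.7% and 41.7% of all genes). There replicate 0 had the highest mitochondrial share of its group. It was 5.70% beside 5.59% and 2.92% in DAOY, and 5.11% beside 4.24% and 4.17% in U87mg. The part of these shares in the differences was not tested.

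The change from 0 h was compared between the lines in the fit of all 18 samples, and 0 of the 10 genes passed an FDR of 0.05 at 2 h, where 0.0% of 16482 genes did, or at 8 h, where 0.0121% did. DESeq2 and limma also called 0. At 2 h, an unadjusted p under 0.05 was reached by 3 genes, each with the larger change in DAOY, where 3.36% of all genes lay on that side: FOSL1 (1.05 ± 0.29), IER2 (0.93 ± 0.30) and JUNB (1.04 ± 0.44), all at an edgeR FDR of 0.620. EGR1 lay on the other side at -0.78 (95% confidence interval -1.89 to 0.32). At 8 h it was reached by EGR3 (-1.54 ± 0.53, edgeR FDR = 0.340), FOSL1 (0.73 ± 0.28, edgeR FDR = 0.432) and FOSL2 (0.41 ± 0.19, edgeR FDR = 0.540), where 4.13% of all genes lay on the higher and 4.75% on the lower side. From 2 h to 8 h, 0 of the 10 passed in U87mg, where 0.397% of genes were called, and FOS (1.33 ± 0.53, edgeR FDR = 0.195) and FOSL1 had an unadjusted p under 0.05 on the higher side, with 10.2% of all genes. FOSL1, FOSL2, JUNB and MYC were higher in every 8 h sample than in every 2 h sample of U87mg (4 of the 10, with 16.8% of all genes). EGR1 differed by 0.11 between these times in U87mg (95% confidence interval -0.68 to 0.90) and by 0.38 in DAOY (-0.24 to 1.01).

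Close relatives outside the 10 genes were read beside them. FOSB stood at 2.05, 1.78 and 4.45 CPM at 0 h and at 7.71, 4.76 and 15.4 CPM after 8 h in U87mg (1.71 ± 0.43, edgeR FDR = 0.0714). In DAOY its 8 h difference was -0.05 ± 0.41, and the lines differed by -1.76 ± 0.63 (edgeR FDR = 0.364). EGR2 differed by 1.00 ± 0.40 at 8 h in DAOY (edgeR FDR = 0.166) and by -0.82 ± 0.33 in U87mg (edgeR FDR = 0.247), and this difference between the lines was 1.83 ± 0.57 (edgeR FDR = 0.292). ATF3, a stress-induced partner of JUN, had intervals that spanned 0 in all comparisons with 0 h. EGR4 had no more than 1 count in any sample and was not tested. Over the 17 listed relatives of the EGR and AP-1 families, 15 of them tested, the small MAF proteins MAFG (1.16 ± 0.16, edgeR FDR = 0.00810) and MAFK (1.31 ± 0.32, edgeR FDR = 0.0430) rose at 8 h in DAOY.

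Of 37 other immediate early genes, 36 were tested in DAOY and 37 in U87mg, and 0 were called at 2 h in either line. Among them, CYR61 averaged 44.1 ± 11.9 CPM at 0 h and 111.2 ± 19.87 CPM at 2 h in DAOY. The study, which tested single transcripts, had CYR61 among its differentially expressed transcripts at 2 h in DAOY. At an unadjusted p under 0.05, 6 in DAOY and 4 in U87mg lay on the higher side at 2 h, with 1.38% and 4.85% of all genes, and 1 and 2 on the lower side, with 1.38% and 3.93%. At 8 h, 15 in DAOY and 11 in U87mg lay on the higher side, with 10.5% and 8.93% of all genes, and 5 and 2 on the lower side, with 12.2% and 6.95%. At 8 h in DAOY, 3 rose and 1 fell. The matrix protein gene CYR61 rose from 44.1 ± 11.9 to 178 ± 67.4 CPM (2.02 ± 0.29, edgeR FDR = 0.00884), the stress phosphatase subunit PPP1R15A from 30.3 ± 7.28 to 69.2 ± 18.3 CPM (1.19 ± 0.24, edgeR FDR = 0.0220) and the nuclear receptor NR4A2 from 12.6 ± 4.16 to 35.2 ± 7.19 CPM (1.48 ± 0.34, edgeR FDR = 0.0328). CTGF, from the same gene family as CYR61, fell from 195 ± 76.3 to 91.3 ± 29.9 CPM (-1.10 ± 0.28, edgeR FDR = 0.0470). In U87mg at 8 h only MIR22HG, the host RNA of a microRNA, was called (1.19 ± 0.21, edgeR FDR = 0.0236). The medians of this list at 8 h were 0.35 in DAOY and 0.23 in U87mg, beside -0.01 and 0.00 over all genes.

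Upstream and downstream genes were read from the same fits. Of the 10 SRF and TCF regulators, which bind or act at the promoters of early genes, 0 were called at any time in either line. At 8 h, 4 of them in U87mg and 2 in DAOY had an unadjusted p under 0.05 on the higher side, with 8.93% and 10.5% of all genes, and 0 on the lower side, and their medians were 0.36 and 0.27. Of the 14 ERK output genes, SPRY4 (1.24 ± 0.20, edgeR FDR = 0.0111), a feedback inhibitor of receptor signaling, and EPHA2 (1.65 ± 0.31, edgeR FDR = 0.0185), an ephrin receptor, rose at 8 h in DAOY, and 0 were called in U87mg. EPHA2 and MAFG also rose from 2 h to 8 h in DAOY (1.43 ± 0.31, edgeR FDR = 0.0497, and 1.02 ± 0.16, edgeR FDR = 0.0239). The median change of the ERK output list at 8 h was 0.58 in DAOY and 0.01 in U87mg. Of the target genes listed for EGR1 (11 tested), for AP-1 (17 tested in U87mg and 18 in DAOY) and for MYC (20 tested), and of the MYC network genes (13 and 15 tested), 0 were called against 0 h. At an unadjusted p under 0.05, 8 h against 0 h, 5 MYC targets in U87mg and 0 in DAOY lay on the higher side, and 0 and 1 on the lower side. Of the AP-1 targets, 3 in each line lay on the higher side, and 2 in U87mg and 1 in DAOY on the lower side. Of the EGR1 targets, 0 in U87mg and 1 in DAOY lay on the higher side, and 1 in each line on the lower side. Over all genes, the higher side held 8.93% in U87mg and 10.5% in DAOY, and the lower side 6.95% and 12.2%. The median change of the AP-1 targets was 0.34 at 2 h and 0.33 at 8 h in DAOY, and -0.07 and -0.05 in U87mg. That of the EGR1 targets was 0.04 at 2 h and 0.05 at 8 h in DAOY, and -0.23 and -0.18 in U87mg.

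**Figure D4:**
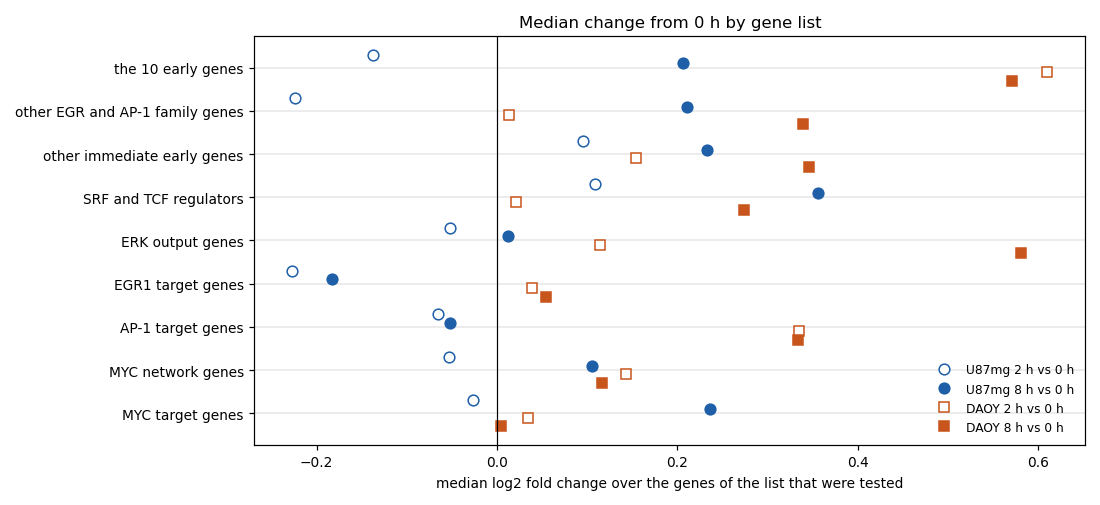
Median log2 fold change from 0 h over the tested genes of each list (rows), for U87mg (circles) and DAOY (squares) at 2 h (open) and 8 h (filled). In DAOY at 2 h the 10 early genes had a median of 0.61 and the other immediate early genes one of 0.15.

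The genes whose levels ran most like these were ranked by Pearson's r of log2(CPM + 1), centred within each line, over all 18 samples and 13138 genes. The genes compared share libraries and depth, so r is a description. For EGR1 the 5 closest were ARID5B (r = 0.872), MED10 (0.818), KLF5 (0.814), GEM (0.812) and DCP1A (0.803). ARID5B, a DNA-binding protein, had group means of 58.5, 98.8 and 86.9 CPM at 0, 2 and 8 h in U87mg and of 61.4, 85.3 and 94.1 CPM in DAOY, and was not called in either line. For JUN they were RP4-591C20 (0.793), ZNF792 (0.779), FAM222B, GATSL3 and TIGD6. For MYC they were RP11-561B11 (0.812), SPRY4 (0.799), SH2B3, MAFF and GRB2, of which SPRY4 is an ERK output gene and MAFF a small MAF protein.

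At the level of transcripts, EGR1, JUN and JUNB are annotated with 1 transcript each (ENST00000239938 on chromosome 5, 138465490 to 138469315, 2 exons; ENST00000371222 on chromosome 1, 58780788 to 58784327, 1 exon; ENST00000302754 on chromosome 19, 12791496 to 12793315, 1 exon; GENCODE 29, GRCh38). FOS was carried by ENST00000303562, with 98.2% of its counts in U87mg and 96.8% in DAOY, and EGR3 and JUND were carried almost wholly by their main transcript. FOSL1 was split: ENST00000448083 held 60.0% of its counts in U87mg and 64.6% in DAOY, and ENST00000312562 held 29.7% and 29.9%. MYC was split between ENST00000524013 (60.3% and 65.6%) and ENST00000377970 (34.9% and 34.2%), FOSL2 between ENST00000379619 (68.7% and 73.9%) and ENST00000264716, and IER2 between ENST00000292433 (73.7% and 80.9%) and ENST00000588173. Transcripts of a gene share exons, so these shares are estimates. When transcripts were tested on their own, 16 of the 34 passed the filter in U87mg and 15 in DAOY, and 0 were called by edgeR in any comparison, as was true of 0.0% of the 40613 and 41336 transcripts tested in the 2 lines. At an unadjusted p under 0.05, 2 of 16 were found at 2 h and 4 at 8 h in U87mg, and 6 of 15 at 2 h and 8 at 8 h in DAOY, beside 5.56%, 6.3%, 3.07% and 10.3% of all transcripts.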

How the data were processed

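RNA of 18 samples was read as single-end polyA libraries made with a stranded kit. Per the submitters' processing notes and the study's methods, the authors trimmed reads with the FastQC toolkit 2.0.0 and ran kallisto 0.43.0 on GENCODE 24 transcripts (GRCh38.p5), and the deposited table holds estimated counts and TPM per transcript and sample. Whether kallisto used strand is not given in the sources used here, so overlapping genes and near-identical copies are uncertain. The table's 24 columns of the authors' own comparisons (p-values, q-values and fold changes from sleuth 0.28.1) were not used.

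Estimated counts were summed by gene name, rounded, filtered with filterByExpr and scaled by TMM. The 9 samples of each line went into 1 fit with the quasi-likelihood test of edgeR 4.0.16 (glmQLFit, glmQLFTest, R 4.3.3), with Benjamini-Hochberg adjustment (FDR) over all genes tested. A call needed an FDR under 0.05 together with a fold of at least 2 either way, whereas a difference between the lines in the change from 0 h needed the FDR alone. Comparisons between lines used 1 fit of all 18 samples. CPM are TMM-scaled within a line. All tests are two-sided. Correlations of the deviations of same-numbered samples from their group means ran from -0.243 to 0.513 over 18 pairs. The numbers were read as pairs where all 3 pairs of a comparison were over 0.1, which held for 2 h and 8 h in U87mg (0.164 to 0.311) and for no other comparison within a line. The values given for 8 h against 2 h in U87mg still come from the fit without the replicate number as a block, except where the block is named.

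The fits were tested on simulated counts in which 200 genes changed 4-fold at 2 h. They called 197 of these in U87mg and 190 in DAOY, with 6 and 14 unchanged genes. Smaller folds, such as those of the 10 genes at 2 h, were not simulated, so how often they would be called is not known. Alternatives were DESeq2 1.42.0, limma 3.58.1 on log2(TPM + 1) and log2(TPM + 0.1), other filters, scaling, samples and blocks. The 10 genes, the gene lists and the alternatives were chosen with earlier results of these data known. All 10 genes are named, and from each list up to 4 called genes per comparison and direction by smallest p, with FOSB, EGR2, EGR4, ATF3 and the 5 genes most like EGR1, JUN and MYC. Some called genes of the lists are not reported here.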

Additional observations from a re-analysis of the deposited data

How the results depend on the processing

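Of the 10 genes, the number called at 8 h in U87mg was 2 with DESeq2, 0 with limma at either pseudocount, 2 with no filter, and 0 with protein_coding transcripts only, with only the 6 samples compared and with all 18 samples in one fit. FOS was the second gene under DESeq2 (1.88, FDR = 0.0144) and with no filter (1.83, FDR = 9.4e-06). FOS at 8 h in DAOY was called with DESeq2 (FDR = 0.00300), with no filter, with the block and with all 18 samples. In that last fit EGR1 lost its call at 8 h in DAOY (1.14, FDR = 0.0545), so the 2 genes called there were EGR3 and FOS. The number called at 8 h in DAOY was 1 with limma on either scale, 1 with protein_coding transcripts only and 0 with only the 6 samples compared. For 2 h against 0 h in U87mg it was 1 with no filter and 1 with only the 6 samples compared, EGR1 in both, for 8 h against 2 h in U87mg it was 1 with no filter (FOS), and for 8 h against 2 h in DAOY it was 0 with protein_coding transcripts only. Why these settings differ was not tested beyond the number of genes and samples they hold.

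With the replicate number as a block, 0 of the 10 genes were called at 8 h in U87mg, 3 at 8 h in DAOY (FOS added, FDR = 0.0349), 0 for 8 h against 2 h in DAOY (EGR3 at -1.51, FDR = 0.0661) and 5 between the lines at 0 h (FOS lost, FDR = 0.132). For 8 h against 2 h in U87mg, where the numbers were read as pairs, 0 were called with and without the block. The labels do not say what a shared number stands for. The 3 same-numbered pairs of each other comparison within a line did not all exceed 0.1, so there the numbers were not read as pairs.

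Leaving out each sample in turn, which also leaves fewer samples in the fit, gave 0 to 1 of the 10 called at 8 h in U87mg, 0 to 2 at 8 h in DAOY, 0 to 0 for 8 h against 2 h in DAOY and 5 to 6 between the lines, and 0 in the other comparisons. Small differences turned sign. In U87mg, EGR3 at 8 h was -0.023 and -0.089 with limma at the larger and smaller pseudocount, and EGR1 for 8 h against 2 h was -0.21 and -0.22 with limma and -0.044 with the block. With 1 sample left out, values at 2 h in U87mg ran from -0.32 to 0.051 (IER2), from -0.60 to 0.19 (JUNB) and from -0.0034 to 0.12 (MYC). At 8 h in U87mg they ran from -0.13 to 0.44 (EGR3), from -0.012 to 0.18 (FOSL2), from -0.044 to 0.28 (IER2), from -0.068 to 0.72 (JUNB) and from -0.31 to 0.052 (JUND). For 8 h against 2 h in U87mg, EGR1 ran from -0.31 to 0.52. In DAOY, EGR3 at 2 h ran from -0.081 to 0.35, and JUND from -0.025 to 0.17 at 2 h and from -0.021 to 0.21 at 8 h. None of these was called in either direction. Depth limits EGR3 and FOS in U87mg, which rest on few reads, and with 3 samples a group the calls of EGR1 and EGR3 lie close to the FDR threshold.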
